A study of Mus musculus with 14 samples.

Results

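The genes described here encode the nuclear pore and the receptors that carry cargo through it, in mouse leukemia cells with and without depletion of Sgf29. They were chosen by name from the count table: every gene with a Nup, Kpna or Kpnb, Ipo, Xpo or Tnpo symbol, and 12 further genes (Ran, Ranbp1, Rangap1, Rcc1, Cse1l, Tpr, Pom121, Ndc1, Seh1l, Sec13, Aaas and Rae1). This gave 56 of the 22155 genes in the table, of which 55 passed the filter on low counts. The gene left out, Nup62cl, had 0 counts in all 6 libraries. No measured value entered the choice of names, although the set was chosen with results of these data known.

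The nuclear pore is a ring of scaffold proteins set in the nuclear envelope, with a central channel lined by proteins rich in phenylalanine-glycine repeats that hold back large molecules. Importins and exportins bind cargo and cross this barrier, and the small GTPase Ran gives the passage its direction, because Ran is loaded with GTP on chromatin and its GTP is hydrolysed in the cytoplasm. Messenger RNA, ribosomal subunits, tRNA, histones and transcription factors all pass this way, and rapidly growing cells such as leukemic blasts depend on heavy traffic in both directions.

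RNA sequencing compared 3 libraries of cells given a control guide (sgCtrl) with 3 libraries given a guide against Sgf29 (sgSgf29). SGF29 is a Tudor domain protein of the SAGA and ATAC complexes, which acetylate histone H3, and the comparison asks how its loss alters transcription. All 6 libraries came from mouse MLL-AF9 leukemia cells that express Cas9, transduced by lentivirus with a guide cloned in the ipUSEPR vector and held in puromycin at 2 μg/ml for 3 days, so the controls carried the fusion, Cas9, the vector and the drug as well. Neither the age nor the sex of the animals behind these cells is given with the samples, and the cells are a culture of transformed progenitors rather than a tissue. No source says whether the replicates of a group were grown separately, repeat 1 transduction or differ in guide sequence, so p-values measure only the spread between these libraries.

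Sgf29 itself measured 36.2, 40.4 and 40.4 CPM (gene counts scaled to a common library size, after TMM) in sgCtrl and 12.6, 13.4 and 17.4 CPM in sgSgf29. The groups did not overlap, and the log2 fold change (here and below ± a standard error derived from the test statistic) was -1.43 ± 0.11. The adjusted p was 2.9e-10 by edgeR's quasi-likelihood test, the test behind every adjusted p below unless another is named. Gene counts per library ran from 16003990 to 21786618. Over all tested genes, 34.4% were called lower and 35.4% higher. In a list of 10 mature myeloid genes, sgSgf29 had 8 higher and 1 lower. Their summed level went from 5158 to 5175 CPM in sgCtrl to 11101 to 11998 CPM in sgSgf29. Most of this sum was S100a8, at 2779 ± 81.2 CPM in sgCtrl and 7967 ± 402 CPM in sgSgf29 (SD of 3 libraries). Of 8 progenitor and leukemia genes, 4 were lower and 3 were higher, with the lowest mean at 15.5 CPM (Meis1 in sgCtrl) and summed levels of 1424, 1406 and 1485 CPM in sgCtrl and 1257, 1216 and 1257 CPM in sgSgf29. Of 14 proliferation genes, 10 were lower and 1 was higher, and they summed to 2529, 2509 and 2679 CPM against 1799, 1996 and 2157 CPM. B cell, T or NK cell and fibroblast markers each summed to less than 1 CPM in every library, with Ms4a1 and Cd3e at 0. Megakaryocyte markers summed to 8.30 to 9.49 CPM in sgCtrl and 5.42 to 7.21 CPM in sgSgf29, with Pf4 at 0. The mast cell list held Cpa3, at 0, and Mcpt8, which alone gave its sum of 9.37 to 9.99 CPM in sgCtrl and 2.39 to 3.37 CPM in sgSgf29. That sum is therefore not taken as a sign of mast cells. The part of the myeloid and proliferation genes in the results that follow was not tested.

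Most transport genes were lower after Sgf29 depletion. With calls made at an adjusted p under 0.05, 43 of the 55 tested members were lower, 2 were higher (Tpr and Ipo8) and 10 were not called. Among all 11169 genes tested, 34.4% were called lower and 35.4% higher, 69.8% in all, whereas 78.2% of the members were called lower and 3.64% higher, 81.8% in all. The median log2 fold change of the members was -0.42, beside 0.01 over all tested genes. The 2 groups did not overlap for 39 members that were lower and for 2 that were higher, where 35.1% and 37% of all tested genes showed such a separation. Most members are well expressed, and at a mean of at least 20 CPM 80% of 50 members and 41.4% of 7080 genes were lower. The changes were moderate in size, with 54 of the 55 members short of a 2-fold change.

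Summed over the members, the level was 5895, 5845 and 6091 CPM in sgCtrl and 4119, 4287 and 4537 CPM in sgSgf29, or 72.6% of the control mean. All 3 sgSgf29 libraries lay below all 3 controls. Without any scaling the members took 0.540% to 0.560% of gene counts in sgCtrl and 0.437% to 0.494% in sgSgf29. In bulk RNA of this kind, fewer cells of a type and less RNA per cell cannot be told apart. With library size as the only scaling the median of all tested genes moved to 0.24 and that of the members to -0.19, the calls became 29 lower and 9 higher, and over all genes 30% of calls were lower in place of 49.3%. Relative to the median of all genes, the members' median was -0.43 under both scalings. A change of scaling shifts all genes by nearly the same amount. This difference could therefore hardly change, and it does not bear on which scaling is right. Among members called under TMM or with library size alone, 8 log2 fold changes turned positive with the latter. These were Ipo9, Tnpo3, Xpo6, Xpo7, Nup50, Nup88, Sec13 and Seh1l. Their values under TMM lay between -0.22 for Xpo6 and -0.04 for Sec13. Members called under neither scaling are not in this list.

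**Figure D1:**
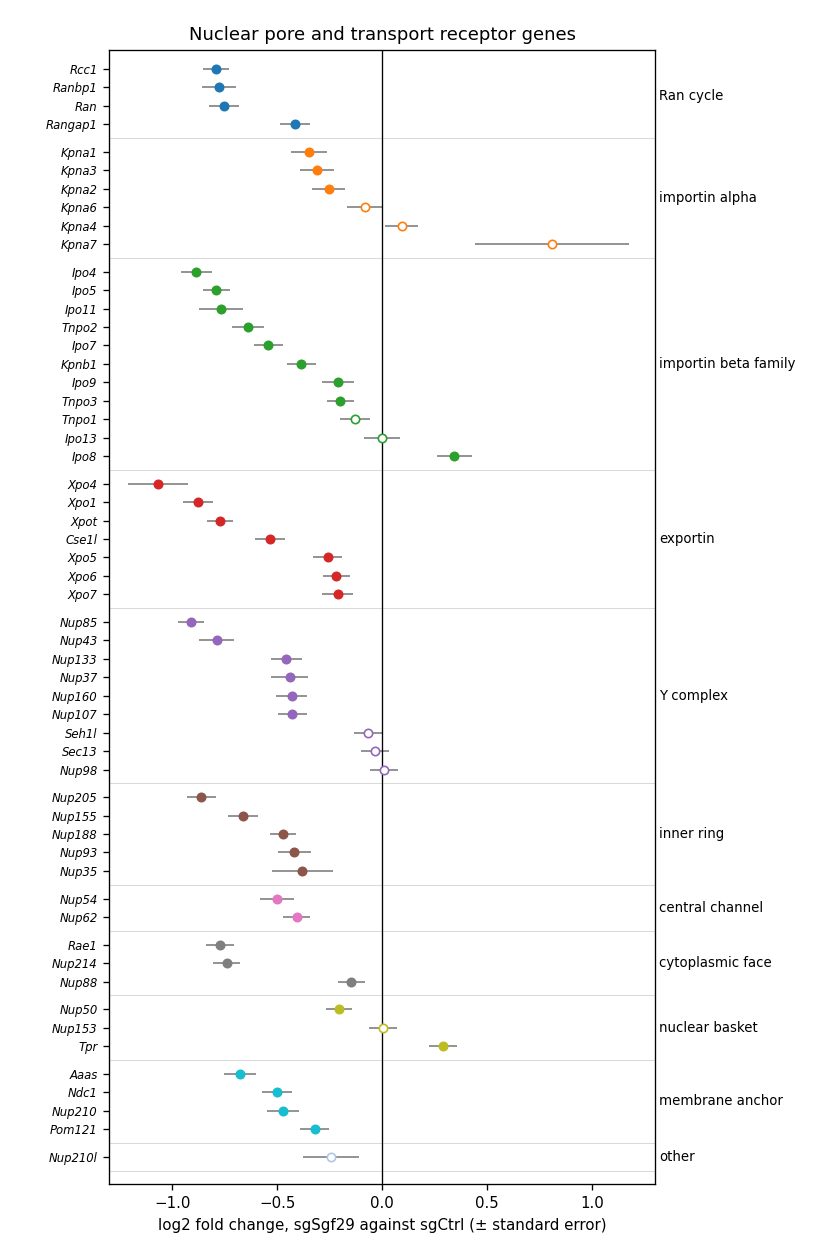
Log2 fold change of each tested gene between sgSgf29 and sgCtrl with its standard error, grouped by role, where filled points were called at an adjusted p under 0.05 and open points were not. Of the 55 genes, 43 filled points lie left of 0 and 2, Ipo8 and Tpr, lie right of it.

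The genes of the Ran cycle, which power directional transport, were all lower. Ran, the GTPase, lies at chr5:129020156-129024322 on the plus strand (GRCm38.p6) and measured 714, 654 and 706 CPM in sgCtrl and 383, 396 and 449.6 CPM in sgSgf29. The highest sgSgf29 library lay well below the lowest control. The log2 fold change was -0.75 ± 0.07, adjusted p = 1.1e-08, and the level fell by 40.7%. Rcc1, the chromatin-bound exchange factor that loads Ran with GTP, measured 161, 166 and 165 CPM in sgCtrl and 93.99, 93.3 and 96.7 CPM in sgSgf29, with little spread inside either group. Its log2 fold change was -0.79 ± 0.06, adjusted p = 3.9e-10. Ranbp1, a cofactor that promotes GTP hydrolysis on Ran in the cytoplasm, measured 259, 252 and 317 CPM against 154, 155 and 174 CPM, and the sgCtrl replicate 3 library was the highest of the 6. Its log2 fold change was -0.78 ± 0.08, adjusted p = 3.4e-08. Rangap1, the GTPase activator at the cytoplasmic face of the pore, measured 199, 181 and 188 CPM against 132, 137 and 158 CPM, and had the smallest log2 fold change of the 4, -0.41 ± 0.07, adjusted p = 3.3e-05. No group overlapped for any of the 4 genes. Their summed level in sgSgf29 was 61.2% of the control mean.

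**Figure D2:**
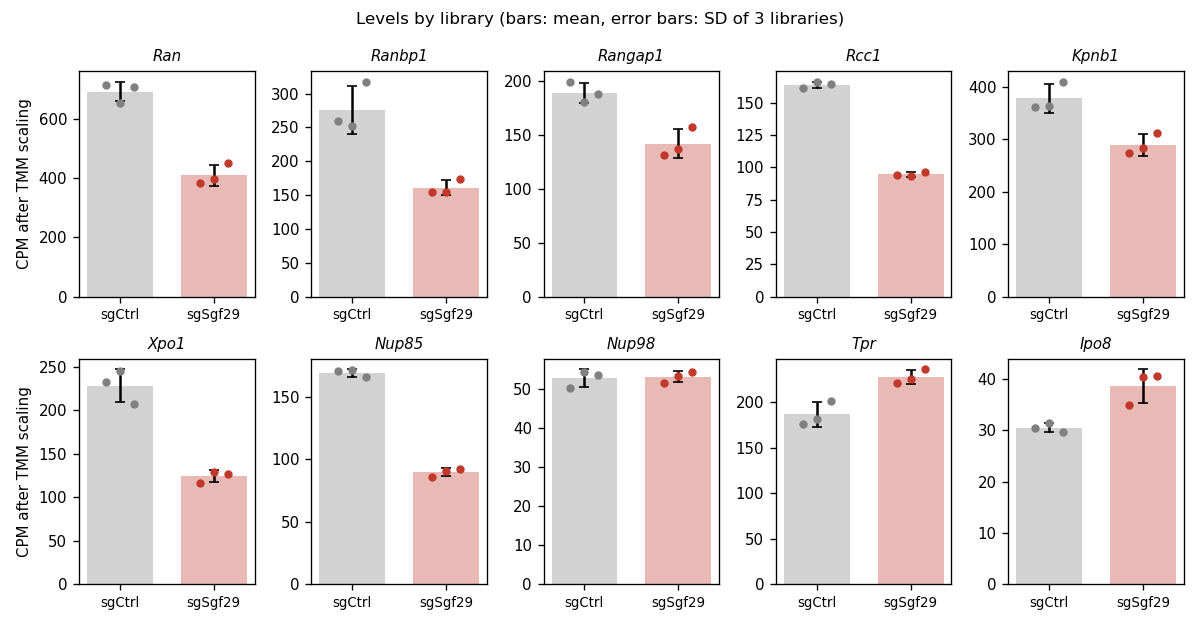
CPM after TMM scaling in each library for 10 genes, with bars at the mean of 3 libraries and error bars of 1 SD, each panel on its own axis from 0. Ran measured 691 ± 32.6 CPM in sgCtrl and 409.6 ± 35.2 CPM in sgSgf29 (SD, n = 3), Nup98 stayed at 52.8 ± 2.25 and 53.1 ± 1.42 CPM, and Tpr and Ipo8 were higher in every sgSgf29 library than in any control.

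The promoter of Ran is shown because Ran is the hub of the cycle and its promoter holds matches to 2 motifs that were searched in all promoters. The 250 bases before its annotated start, from RefSeq on GRCm38.p6, are given 5′ to 3′ with the matches in capitals: GCGCA joined to its reverse complement TGCGC, the motif bound by NRF1, and CACGTG, the E box bound by MYC and related factors.
Ran (chr5:129019906-129020155, plus strand): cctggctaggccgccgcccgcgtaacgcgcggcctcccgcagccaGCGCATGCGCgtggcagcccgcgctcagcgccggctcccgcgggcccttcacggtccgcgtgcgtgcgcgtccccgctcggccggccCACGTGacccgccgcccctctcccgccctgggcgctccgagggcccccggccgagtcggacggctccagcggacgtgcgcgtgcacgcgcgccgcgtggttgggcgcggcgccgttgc
Both motifs read the same on either strand, so 1 search covers both. In windows of 300 bases, 250 before and 50 after the start, 45 of the 56 members had an entry and 44 of these were tested. The start of an entry differed from the RefSeq start of the gene in some members, such as Ipo4, Xpot, Nup54 and Nup188. CACGTG was found in 8 of the 35 lower members with an entry (22.9%), in 0 of the 2 higher and in 0 of the 7 not called. It was in 14% of all lower genes, 12% of all tested genes and 8.09% of all promoters. The NRF1 motif was found in 5 of the 35 lower members (14.3%) and in none of the other 9, beside 2.8% of all lower genes, 2.55% of all tested genes and 1.07% of all promoters. CCGGAAG, the core bound by ETS factors and searched with its reverse complement CTTCCGG, was in 8 of the 35 lower members, 22.9% beside 24.7% of all lower genes, and in 1 of the 7 not called, Sec13. The counts are small and a match is a description of the letters, not of binding.

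The E box was also found once in Ipo4, Ipo7, Nup54, Nup93 and Xpot and 2 times in Nup188 and Tnpo2. In Ipo4 the match lies inside the RefSeq span of the gene. Stretches upstream of the entry's start are given for 6 of these genes to show where the match sits. CACGTG is in capitals and, in Nup54, CCGGAAG as well.
Ipo7 (chr7:110018155-110018214, plus strand): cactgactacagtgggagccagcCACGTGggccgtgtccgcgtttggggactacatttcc
Tnpo2 (chr8:85036723-85036802, plus strand): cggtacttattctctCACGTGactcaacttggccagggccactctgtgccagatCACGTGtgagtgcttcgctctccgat
Xpot (chr10:121626523-121626582, minus strand): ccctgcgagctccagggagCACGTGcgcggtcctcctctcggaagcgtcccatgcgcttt
Nup188 (chr2:30286336-30286415, plus strand): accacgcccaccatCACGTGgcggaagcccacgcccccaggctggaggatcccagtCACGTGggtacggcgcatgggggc
Nup93 (chr8:94214364-94214423, plus strand): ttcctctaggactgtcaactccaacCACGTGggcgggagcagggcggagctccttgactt
Nup54 (chr5:92435265-92435329, minus strand): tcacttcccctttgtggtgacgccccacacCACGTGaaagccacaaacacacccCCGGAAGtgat
The NRF1 motif was found in Ran, Nup107, Nup50, Nup62 and Xpo5, and in Nup50 and Xpo5 it occurred 2 times. The next 3 stretches show it in capitals.
Xpo5 (chr17:46202711-46202770, plus strand): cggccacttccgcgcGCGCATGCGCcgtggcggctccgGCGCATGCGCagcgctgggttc
Nup50 (chr15:84923248-84923347, plus strand): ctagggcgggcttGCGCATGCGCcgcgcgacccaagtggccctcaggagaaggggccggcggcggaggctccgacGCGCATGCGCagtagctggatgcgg
Nup62 (chr7:44816028-44816087, plus strand): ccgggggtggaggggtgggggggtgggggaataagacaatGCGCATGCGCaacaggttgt
The log2 fold changes of the genes with the E box ran from -0.89 in Ipo4 to -0.42 in Nup93, and those with the NRF1 motif from -0.75 in Ran to -0.21 in Nup50.

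The importin alpha genes, whose products read the classical nuclear localisation signal, had the smallest median change among the receptors. Of 6 genes, 3 were lower and 3 were not called, with a median log2 fold change of -0.17. Kpna1 measured 40.2, 42.8 and 48.5 CPM in sgCtrl and 32.1, 33.1 and 38.3 CPM in sgSgf29, and its groups did not overlap (log2 fold change -0.35 ± 0.09, adjusted p = 0.0014). Kpna3 measured 40.6, 40.3 and 38.7 CPM and 29.1, 33.1 and 33.96 CPM, again without overlap (log2 fold change -0.31 ± 0.08, adjusted p = 0.0017). Kpna2 had the highest level per exon length of the importin alpha genes and is known from dividing cells. It measured 132, 145 and 159 CPM in sgCtrl and 111, 118 and 136 CPM in sgSgf29, so that 1 sgSgf29 library lay above 1 control. It was called lower with a log2 fold change of -0.26 ± 0.08, adjusted p = 0.0071, but not without sgSgf29 replicate 1 (-0.18, adjusted p = 0.066). None of the 3 calls held with library size as the only scaling, where the log2 fold changes were -0.12 for Kpna1 (adjusted p = 0.26), -0.079 for Kpna3 (0.41) and -0.023 for Kpna2 (0.81). Sequence copies of Kpna2 could also take or lend reads, as 4 annotated pseudogenes share at least 95% identity over 200 bases or more.

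Kpna6, the close paralog of Kpna1, measured 40.7, 41.2 and 49.7 CPM in sgCtrl and 40.3, 40.2 and 44.1 CPM in sgSgf29, with overlapping groups (log2 fold change -0.08 ± 0.08, adjusted p = 0.38). Kpna4, the close paralog of Kpna3, measured 57.3, 54.97 and 67.1 CPM and 65.7, 58.5 and 67.6 CPM, also with overlap (log2 fold change 0.09 ± 0.08, adjusted p = 0.31). Without sgCtrl replicate 3, which held the highest control value, Kpna4 was called higher (0.19, adjusted p = 0.029). Kpna7, the importin alpha of oocytes and early embryos, was close to the detection limit at 0.381, 2.34 and 1.25 CPM in sgCtrl and 2.29, 2.03 and 2.59 CPM in sgSgf29. The controls spread widely and the log2 fold change of 0.81 ± 0.37, adjusted p = 0.057 missed the threshold, while without sgCtrl replicate 2 it was 1.42 (adjusted p = 0.0023). It was also called higher with no filter on low counts (adjusted p = 0.014) and by limma-voom (adjusted p = 0.021). With library size as the only scaling both Kpna4 and Kpna7 were called higher (adjusted p = 0.0012 and 0.018). Kpna2 held 42.4% to 44.3% of the importin alpha counts of each sgCtrl library and 39.5% to 42.1% in sgSgf29, and Kpna4 held 16.8% to 18.4% in sgCtrl and 20.5% to 23.4% in sgSgf29. For both the ranges of the groups were apart.

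The importin beta family, the carriers that move cargo through the channel, was lower in 8 of 11 genes, higher in 1 and not called in 2. Their summed level in sgSgf29 was 74.8% of the control mean. Ipo4, an importer of histones and ribosomal proteins, measured 59.2, 60.1 and 63.8 CPM in sgCtrl and 33.05, 35.2 and 30.9 CPM in sgSgf29 (log2 fold change -0.89 ± 0.07, adjusted p = 1.3e-09). Ipo5, which also carries ribosomal proteins and core histones, measured 216, 205 and 215 CPM and 118, 122 and 128 CPM (log2 fold change -0.79 ± 0.06, adjusted p = 6.4e-10). Ipo11, an importer of ubiquitin-conjugating enzymes, was rarer at 25.9, 23.3 and 21.2 CPM and 14, 13.2 and 14.1 CPM (log2 fold change -0.77 ± 0.10, adjusted p = 1.3e-06). The falls were 45.9%, 42.1% and 41.3%, and none of the 3 genes had overlapping groups.

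Kpnb1, the partner of importin alpha and the carrier of this family with the highest level per exon length, fell from 378 ± 27.3 CPM to 289.6 ± 20.4 CPM (SD, n = 3), with a log2 fold change of -0.39 ± 0.07, adjusted p = 6.3e-05. That call was lost with library size as the only scaling (-0.15, adjusted p = 0.057). Tnpo2, which carries RNA-binding proteins, was lower by 35.7% (log2 fold change -0.64 ± 0.08, adjusted p = 2.4e-07). Ipo7, an importer of ribosomal proteins and the linker histone, fell by 31.3% (log2 fold change -0.54 ± 0.07, adjusted p = 5.9e-07). Tnpo3, which carries serine-arginine-rich splicing factors, and Ipo9, which carries histone dimers, changed least among the called genes, by -0.20 and -0.21 on the log2 scale (adjusted p = 0.0094 and 0.019), and both turned positive with library size as the only scaling. The call of Tnpo3 was lost without sgSgf29 replicate 2 (adjusted p = 0.058). That of Ipo9 was lost without sgCtrl replicate 1 (adjusted p = 0.062) or 2 (0.11) and without sgSgf29 replicate 1 (0.13) or 2 (0.062). Tnpo1, the paralog of Tnpo2, was not called at 119.9 ± 9.08 CPM against 109.7 ± 8.20 CPM (log2 fold change -0.13 ± 0.07, adjusted p = 0.11), but was called lower without sgSgf29 replicate 3 (adjusted p = 0.042). Ipo13, which moves cargo both ways, had equal means of 25.8 ± 0.659 CPM and 25.8 ± 1.22 CPM (log2 fold change 0.00, adjusted p = 1), but was called higher with library size as the only scaling (0.23, adjusted p = 0.024).

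Ipo8, the close paralog of Ipo7, went the other way. It measured 30.5, 31.5 and 29.6 CPM in sgCtrl and 34.9, 40.3 and 40.7 CPM in sgSgf29, with every sgSgf29 library above every control. The rise was 26.9%, a log2 fold change of 0.34 ± 0.08, adjusted p = 0.00092. Its exons overlap a non-coding transcript on the opposite strand, so part of the reads could belong to it if strand was not used in counting.

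All 7 exportins were lower, with a median log2 fold change of -0.54 and a summed level of 708, 737 and 706 CPM in sgCtrl and 466, 484 and 485 CPM in sgSgf29. Xpo1, the main exporter of proteins with a leucine-rich signal and of ribosomal subunits, measured 232, 244 and 207 CPM against 116, 129 and 127 CPM, without overlap. It fell by 45.6% (log2 fold change -0.88 ± 0.07, adjusted p = 8.3e-10). Xpot, the exporter of tRNA, measured 163, 169 and 179.6 CPM against 102, 100.1 and 97.3 CPM and fell by 41.4% (log2 fold change -0.77 ± 0.06, adjusted p = 1.1e-09). Xpo4, which carries a translation elongation factor out and some transcription factors in, showed the largest fold change of all members, although at a low level of 12.7, 15.7 and 11.8 CPM against 7.15, 6.31 and 5.72 CPM. Its log2 fold change was -1.07 ± 0.14, adjusted p = 1.2e-06, the only one past 2-fold.

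Cse1l, which returns importin alpha to the cytoplasm, fell from 74.9 ± 2.92 to 51.6 ± 4.30 CPM (log2 fold change -0.54 ± 0.07, adjusted p = 1.3e-06) beside -0.35 for Kpna1, the lowest value of its cargo family. The other 3 exportins had smaller log2 fold changes. Xpo5, the exporter of microRNA precursors, had a log2 fold change of -0.26 ± 0.07, adjusted p = 0.0026. Xpo6, the exporter of actin, had one of -0.22 ± 0.06, adjusted p = 0.0054, and Xpo7, a receptor with broad cargo, one of -0.21 ± 0.08, adjusted p = 0.017 with overlapping groups. With library size as the only scaling the calls of all 3 were lost, Xpo5 being at -0.028 (adjusted p = 0.75) and Xpo6 and Xpo7 slightly positive. The call of Xpo7 was lost without sgCtrl replicate 3 (adjusted p = 0.077) or sgSgf29 replicate 2 (adjusted p = 0.11).

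Among the proteins of the pore, 21 of 27 tested genes were lower, 1 was higher and 5 were not called, with a summed level of 2288, 2289.6 and 2327 CPM in sgCtrl and 1701, 1786 and 1857 CPM in sgSgf29. The receptors, importins and exportins together, gave 18 lower, 1 higher and 5 not called of 24. In sgSgf29 the sum was 77.4% of the control mean for the pore and 74.3% for the receptors.

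The Y complex forms the outer rings of the pore scaffold and split into 2 sets. Of 9 genes, 6 were lower and 3 were not called. Nup85 measured 170.2, 171 and 166 CPM in sgCtrl and 85.9, 90.8 and 92.2 CPM in sgSgf29, without overlap, and fell by 46.9% (log2 fold change -0.91 ± 0.06, adjusted p = 6.4e-11). Nup43 measured 34.1, 38.4 and 36.2 CPM against 20.2, 21 and 21.6 CPM (log2 fold change -0.79 ± 0.08, adjusted p = 5.4e-08). Nup133 measured 56.4, 59.2 and 61.3 CPM against 39.96, 42.2 and 46.7 CPM (log2 fold change -0.46 ± 0.07, adjusted p = 1.5e-05). The groups were apart for these 3 subunits and for Nup37, Nup160 and Nup107, whose log2 fold changes were -0.44, -0.43 and -0.43. The 3 genes not called are also known for other work, and whether this bears on their change was not tested. Sec13, which also coats vesicles leaving the endoplasmic reticulum, was at 111 ± 5.96 CPM against 108 ± 5.75 CPM (log2 fold change -0.04 ± 0.07, adjusted p = 0.64). Seh1l, which like Sec13 also serves a complex of lysosomal nutrient signalling, was at 84.6 ± 5.29 CPM against 80.8 ± 4.91 CPM (log2 fold change -0.07 ± 0.07, adjusted p = 0.41). Nup98, whose product is cut into a repeat protein of the channel and a Y complex subunit, was at 52.8 ± 2.25 CPM against 53.1 ± 1.42 CPM (log2 fold change 0.01 ± 0.07, adjusted p = 0.92). The groups overlapped for all 3. With library size as the only scaling, Sec13 and Seh1l had positive values of 0.20 and 0.17 and were called higher (adjusted p = 0.014 and 0.046), as was Nup98 (adjusted p = 0.0052).

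The inner ring, which holds the scaffold against the membrane, was lower in all 5 genes. Nup205, one of its large scaffold proteins, measured 114, 116 and 103 CPM against 58.9, 60.1 and 64.1 CPM (log2 fold change -0.86 ± 0.07, adjusted p = 6e-10). Nup155, which links the ring to the membrane, measured 68.1, 63.5 and 66.1 CPM against 39.2, 43.3 and 42.4 CPM (log2 fold change -0.66 ± 0.07, adjusted p = 4e-08). Nup188, the paralog of Nup205, measured 95.3, 90.2 and 90.8 CPM against 67.3, 67.7 and 64.2 CPM (log2 fold change -0.47 ± 0.06, adjusted p = 1.3e-06). The groups did not overlap for the 3 genes. Nup93, the linker of the ring to the channel, was lower with a log2 fold change of -0.42 ± 0.08, adjusted p = 7.9e-05. Nup35, a small membrane-binding subunit counted at a low level, was called lower (log2 fold change -0.38 ± 0.14, adjusted p = 0.024) with overlapping groups of 16.8, 11.05 and 14.6 CPM and 9.14, 11.1 and 12.3 CPM. Its call was lost without sgCtrl replicate 1 (adjusted p = 0.17) or 3 (0.056) and without sgSgf29 replicate 1 (0.14) or 2 (0.064), and its log2 fold change without sgCtrl replicate 1 was -0.25. With library size as the only scaling the calls of Nup93 (-0.19, adjusted p = 0.053) and Nup35 (-0.15, adjusted p = 0.39) were lost.

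The channel is lined by a trio of repeat proteins, of which the name rule took Nup54 and Nup62. Nup62 measured 139, 137 and 139 CPM in sgCtrl and 100.3, 101 and 111 CPM in sgSgf29 (log2 fold change -0.41 ± 0.06, adjusted p = 9e-06). Nup54 measured 41.9, 45.8 and 43.1 CPM and 27.95, 31.5 and 32.9 CPM (log2 fold change -0.50 ± 0.08, adjusted p = 1.4e-05). Both were lower without overlap. The trio's remaining gene, Nup58, stands in the table under its older symbol Nupl1 and so falls outside the rule. It measured 13.5, 17.3 and 18.6 CPM in sgCtrl and 19.6, 24.3 and 23.6 CPM in sgSgf29, and was higher in every sgSgf29 library (log2 fold change 0.45 ± 0.12, adjusted p = 0.002).

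On the cytoplasmic face, where exported mRNA is released, all 3 genes were lower. Rae1, an mRNA export factor, measured 127, 125 and 143 CPM against 75.6, 76.98 and 78.5 CPM (log2 fold change -0.77 ± 0.07, adjusted p = 2.4e-09). Nup214, a docking site for exportins, measured 102, 106 and 110.4 CPM against 62.3, 63.3 and 64.98 CPM (log2 fold change -0.74 ± 0.06, adjusted p = 2.2e-09). They fell by 41.5% and 40.1%, with groups far apart. Nup88, the partner of Nup214, measured 91.3, 96.95 and 91.7 CPM against 80.7, 82.8 and 88.97 CPM, and its log2 fold change of -0.15 ± 0.06, adjusted p = 0.048 was just past the threshold. Its value turned positive with library size as the only scaling. Its call was also lost with upper-quartile scaling (adjusted p = 0.094), with no filter on low counts (0.072), with a filter of at least 1 CPM in 3 libraries (0.052), and without sgCtrl replicate 1 (0.064), sgCtrl replicate 2 (0.15), sgSgf29 replicate 1 (0.19) or sgSgf29 replicate 2 (0.17).

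The nuclear basket, the filaments on the inner side of the pore, was the only class whose mean summed level was above the control mean, with overlapping groups of 363, 361 and 386 CPM in sgCtrl and 385, 391.7 and 409 CPM in sgSgf29. Tpr, the large filament protein of the basket, measured 176, 181 and 202 CPM in sgCtrl and 222, 226 and 236 CPM in sgSgf29. Each sgSgf29 library was above each control, a rise of 22.1% (log2 fold change 0.29 ± 0.07, adjusted p = 0.00064). Nup50, a mobile basket protein that helps to unload importin alpha, measured 123, 118 and 124 CPM against 104, 103 and 110.0 CPM and was lower (log2 fold change -0.21 ± 0.06, adjusted p = 0.0059), though its value was 0.025 with library size as the only scaling. Nup153, which anchors the basket, was at 61.4 ± 2.08 CPM against 61.5 ± 1.85 CPM (log2 fold change 0.00 ± 0.07, adjusted p = 0.95), but was called higher with library size as the only scaling (0.24, adjusted p = 0.0044). The exons of Tpr overlap those of Odr4 and Prg4 on the opposite strand.

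The membrane anchors, which fix the pore in the envelope, were all lower. Aaas, also called Aladin and held at the pore by Ndc1, measured 87.2, 87.2 and 74.2 CPM against 49.1, 51.8 and 54.2 CPM (log2 fold change -0.68 ± 0.07, adjusted p = 7.8e-08). Ndc1, a membrane-spanning protein needed for pore assembly, measured 80.1, 80.3 and 84.1 CPM against 53.6, 56.1 and 63.1 CPM (log2 fold change -0.50 ± 0.07, adjusted p = 2.5e-06). Nup210, a membrane glycoprotein of the pore lumen, measured 167, 154 and 148 CPM against 100.2, 113 and 125 CPM (log2 fold change -0.47 ± 0.08, adjusted p = 1.2e-05). The groups were apart for these genes and for Pom121, the remaining anchor (log2 fold change -0.32 ± 0.07, adjusted p = 0.00045), whose call was lost with library size as the only scaling (-0.089, adjusted p = 0.29). Nup210l, a testis-enriched relative of Nup210, was near 10.2 CPM in sgCtrl and 8.60 CPM in sgSgf29 and was not called (log2 fold change -0.24 ± 0.13, adjusted p = 0.11), but was called lower without sgCtrl replicate 3 (-0.36, adjusted p = 0.023).

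**Figure D3:**
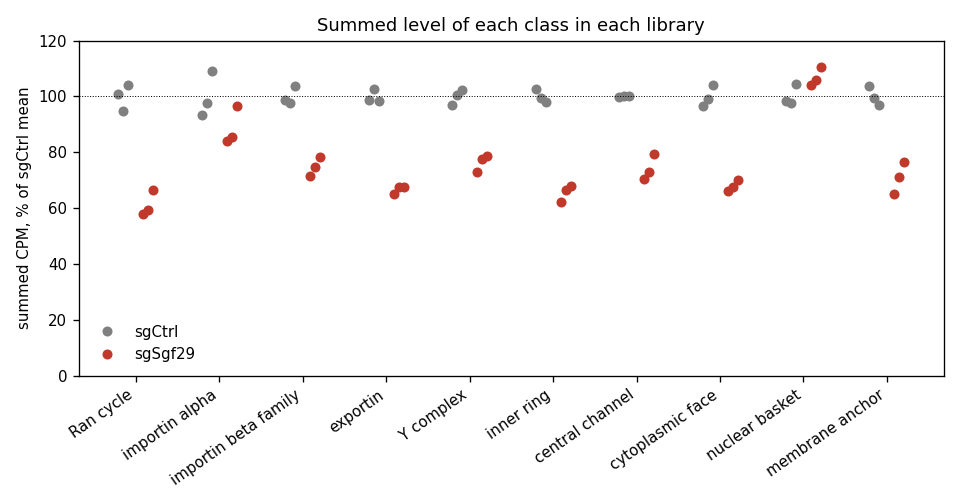
Summed CPM of each role class in each of the 3 libraries per group, as a percent of the class's sgCtrl mean. The groups are apart for 8 of the 10 classes, with means from 61.2% in the Ran cycle to 76.5% in the Y complex, and overlap for importin alpha (88.6%) and the nuclear basket (107%).

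Some paralogs and partners moved to different degrees, and the ratio of their counts was taken within each library, where scaling cancels out. The 9 pairs were chosen after the values had been seen, because their genes differed in change, so the ratios are a description with no test, and other partners such as Rae1 and Nup214 (-0.77 and -0.74) or Ran and Ranbp1 (-0.75 and -0.78) had like values. The ratios of the groups did not overlap in the pairs taken. Ipo7 to Ipo8 went from 4.09, 4.05 and 4.81 in sgCtrl to 2.45, 2.26 and 2.33 in sgSgf29, a difference of -0.88 on the log2 scale. Tnpo2 to Tnpo1 went from 0.890, 0.920 and 0.736 to 0.564, 0.678 and 0.536 (-0.52). Among the importin alpha pairs, Kpna1 to Kpna6 shifted by -0.27 and Kpna3 to Kpna4 by -0.42, each with fewer reads of the first gene per read of the second in sgSgf29. Nup205 to Nup188, the paired scaffold proteins, shifted by -0.39.

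Of the pairs taken from 1 structure, Nupl1 to Nup54 in the channel went from 0.321, 0.379 and 0.431 in sgCtrl to 0.702, 0.774 and 0.717 in sgSgf29 (0.96 on the log2 scale). Nup98 to Nup85 went from 0.295, 0.318 and 0.324 to 0.600, 0.587 and 0.590 (0.92), with ratios within each group much closer to each other than to the other group. Tpr to Nup50 in the basket shifted by 0.50, and Ran to its GTPase activator Rangap1 by -0.34.

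**Figure D4:**
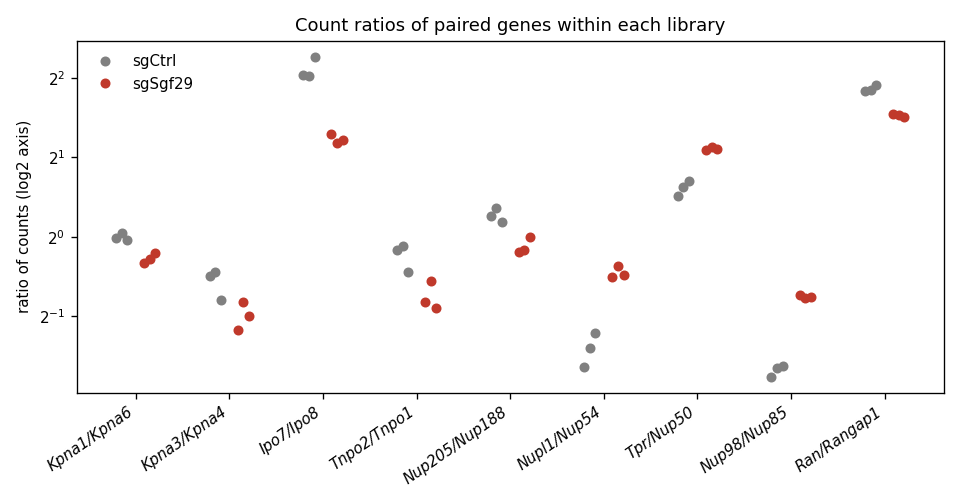
Ratio of the counts of 2 genes within each library for 9 pairs, on a log2 axis, with 3 points per group. The pairs were chosen for their differing changes, the groups are apart in each, and the shift is largest for Nupl1/Nup54 (0.96), Nup98/Nup85 (0.92) and Ipo7/Ipo8 (-0.88).

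Levels can be compared between genes only per length, here as CPM per kb of RefSeq exon. On this scale Ranbp1 and Ran stood far above the other members in the control cells, with Ranbp1 at 324 ± 41.99 and Ran at 302 ± 14.3 CPM per kb (SD, n = 3), which did not differ beyond their spread. Sec13 followed at 85.2 ± 4.58, then Nup85 at 78.2 ± 1.36, Rae1 at 75.5 ± 5.66, Kpna2 at 71.2 ± 6.52, Rcc1 at 70.5 ± 0.956 and Kpnb1 at 63.98 ± 4.62 CPM per kb. From Nup85 to Rcc1, neighbours in this order did not differ beyond their spread. The median member was at 19.4 CPM per kb in sgCtrl and 14.3 in sgSgf29. In sgSgf29 Ranbp1 and Ran stayed at the top, at 189 ± 13.2 and 179 ± 15.4 CPM per kb. Sec13 was level at 83.1 ± 4.42 and Kpna2 was at 59.7 ± 6.33, while Nup85, Rae1 and Rcc1 were at 41.5 ± 1.54, 44.2 ± 0.809 and 40.7 ± 0.782 CPM per kb. The lowest expressed members were Nup210l at 1.76 ± 0.242, Xpo4 at 1.12 ± 0.173 and Kpna7 at 0.569 ± 0.422 CPM per kb in sgCtrl.

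**Figure D5:**
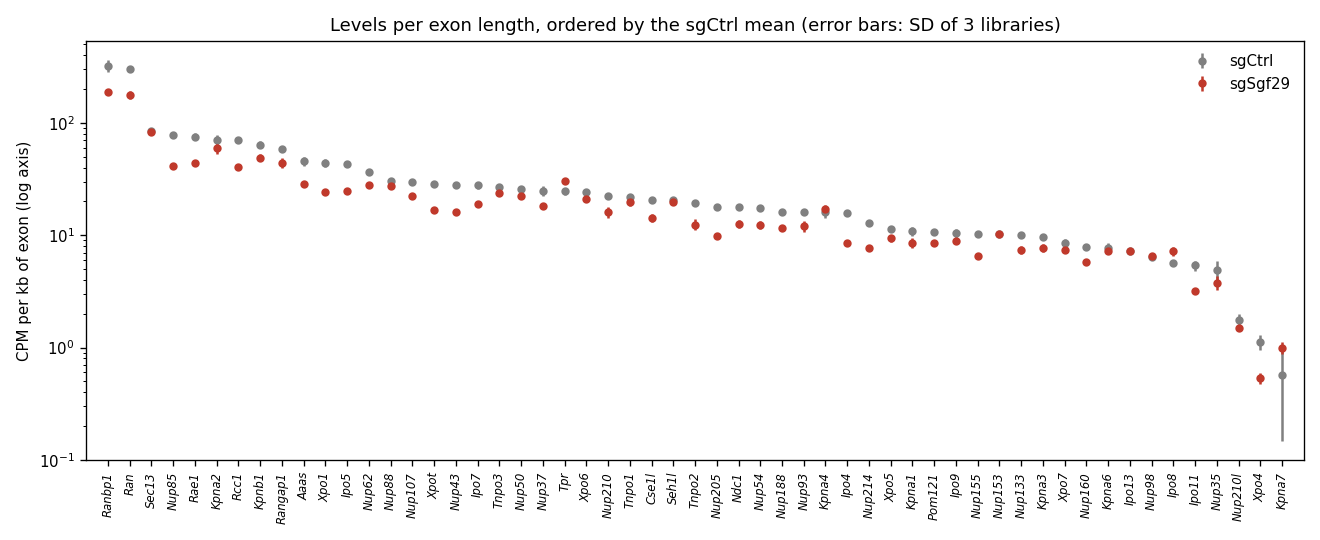
CPM per kb of exon on a log axis for the 55 tested members, ordered by the sgCtrl mean, with error bars of 1 SD over 3 libraries. Ranbp1 and Ran lead at 324 and 302 CPM per kb in sgCtrl, and most sgSgf29 points lie below their sgCtrl points.

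Genes that work with this machinery but carry other names were also mostly lower. Of 34 such genes found in the table, 24 were lower (70.6%), 2 were higher (5.88%) and 8 were not called. Among all tested genes 34.4% were lower and 35.4% higher. The median log2 fold change was -0.33, beside 0.01 over all tested genes. Ranbp2, the giant filament protein of the cytoplasmic face that also binds Ran, measured 164, 173 and 158 CPM in sgCtrl and 84.8, 95.5 and 97.7 CPM in sgSgf29 (log2 fold change -0.83 ± 0.07, adjusted p = 1.1e-09). Nmd3, the adaptor that joins the large ribosomal subunit to Xpo1, measured 51.9, 53.6 and 58.5 CPM against 28.7, 30.7 and 32.1 CPM (log2 fold change -0.84 ± 0.08, adjusted p = 5.1e-09). Ddx39b, a helicase that loads mRNA for export, measured 491, 486 and 454 CPM against 282, 294 and 291 CPM (log2 fold change -0.72 ± 0.06, adjusted p = 3e-09). The groups did not overlap for these genes. Besides Nupl1, the gene called higher was Nxt2, a cofactor of the mRNA export receptor, at 3.43, 2.88 and 3.05 CPM against 5.80, 4.73 and 6.45 CPM (log2 fold change 0.86 ± 0.19, adjusted p = 0.00047).

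Some of these values rest on reads that other loci could share. A pseudogene with at least 95% identity over 200 bases or more is annotated for Ran, Kpna2, Tnpo1, Xpo4, Xpot and Nup54, and the coding genes Gm4353 and Gm10184 share such identity with Nup35 and Kpna2. Transcripts annotated under other names also match exons of Ipo4, Ipo11, Kpnb1, Nup133, Nup188, Ranbp1 and Xpo4 at that level. Exons of 19 members overlap a gene on the opposite strand, among them Nup98 with Pgap2, Nup62 with Atf5, Nup214 with Fam78a, Tnpo3 with Irf5 and Pom121 with Nsun5. Ipo11, Nup62 and Nup93 overlap a gene on the same strand. How the count table treated such reads is not given in the sources used here, so the values of these genes are uncertain to that extent.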

How the data were processed

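mRNA of 6 libraries (3 sgCtrl, 3 sgSgf29) was used. The other 8 of 14 samples, chromatin libraries, were not analysed here. The authors deposited raw counts per gene in 1 table. The paper names STAR with featureCounts and the mm10 genome, whereas STAR 2.6.0a and GRCm38 stand in the submitters' processing notes, and the table holds 5 bookkeeping lines as htseq-count makes them (25.8% to 31.4% of each library), left out of library sizes and tests. Annotation, strand setting and multi-mapping rule were not given in the sources used here. The labels name a directional kit.

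Genes passing filterByExpr (minimum count 10, total 15; 11169 of 22155) were scaled by TMM and entered edgeR 4.0.16 (R 4.3.3) for its quasi-likelihood test, without covariates, with Benjamini-Hochberg adjustment over all genes tested and calls at an adjusted p under 0.05. SDs are of CPM. Each standard error is the absolute log2 fold change divided by the square root of the test's F statistic. The biological coefficient of variation was 6.61%, and gene counts of 16003990 to 21786618 per library set the counting precision. The procedure was also run on simulated counts in which few genes changed, as many up as down. That run does not bear on the choice of scaling in these data. Within groups all libraries differed beyond counting noise (chi-square of 4.48 to 15.4 per degree of freedom). Alternatives were scaling by RLE, by upper quartile or by library size alone, TMM without ribosomal protein genes, other filters, a threshold of 0.01, DESeq2 1.42.0, limma-voom (limma 3.58.1), a replicate block and each library left out.

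Members, role classes, other lists and motifs were chosen with earlier results of these data known. The genes of 1 marker list were left out of the text. Values per library are given for Sgf29, the Ran cycle and importin alpha genes, the 3 called genes with the largest change in each other class and those called against their class. Those of Nup35, the 9 pairs and the overlapping genes named were chosen after their values were seen. Of the 34 related genes, up to 3 called in each direction with the smallest adjusted p are named. Coordinates, exon lengths and promoters are from RefSeq on GRCm38.p6, where all 56 members matched, and copies were found by BLAST against annotated transcripts.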

Additional observations from a re-analysis of the deposited data

How the results depend on the processing

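Of the 45 called members, 31 kept their call and direction under all 16 alternatives and 39 under all but library size scaling. With that scaling 29 members were lower and 9 higher (43 and 2 with TMM), and over all genes 2385 were lower in place of 3842, the median of all genes having moved to 0.24. Some log2 fold changes turned positive among the members called under TMM or with library size alone. They were 0.023 for Ipo9, 0.025 for Nup50, 0.084 for Nup88, 0.20 for Sec13, 0.17 for Seh1l, 0.032 for Tnpo3, 0.014 for Xpo6 and 0.018 for Xpo7. The other scalings, filters and tests gave 42 to 43 lower and 2 to 3 higher, and a threshold of 0.01 gave 39 and 2. Without 1 library in turn, 38 to 44 members were lower and 2 to 3 higher, and the Sgf29 log2 fold change ran from -1.57 to -1.33. Correlations of deviations were 0.01 to 0.08 for libraries of the same replicate number and -0.09 to 0.04 for the others across groups. With 3 libraries per group, these values cannot settle whether the numbers pair the libraries. A replicate block gave 44 lower and 3 higher, where it added calls for Tnpo1 (adjusted p = 0.038) and Kpna7 (adjusted p = 0.041). Depth limits the low genes Kpna7, Xpo4, Nup210l and Nup35. Groups of 3 are too small for a test of single outlying libraries.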

Other observations

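Several of these genes share a promoter region with a protein-coding neighbour transcribed the other way. Of the members with such a neighbour within 1000 bases, 7 had one that was also tested. Of these 7 neighbours, 3 were called in the same direction as the member, where 34.4% of all tested genes were called lower and 35.4% higher. Nup98, among the 7 members, was not called, so its neighbour could not count as called in the same direction. Ranbp1 fell with its neighbour Trmt2a, a tRNA methyltransferase (log2 fold changes -0.78 and -0.40), Nup37 with Parpbp (-0.44 and -0.79) and Nup62 with Atf5 (-0.41 and -0.35), the last being genes whose exons overlap. Neighbours of 2 lower genes were higher, Polh beside Xpo5 (0.30 and -0.26) and Rpain beside Nup88 (0.44 and -0.15). Rpain encodes a carrier that brings replication protein A into the nucleus. Dolk beside the lower Nup188 (-0.06) and Pgap2 beside Nup98 (-0.08) were not called, nor was Nup98 itself (0.01). These are all the members whose coding neighbour at that distance was tested, and 7 are too few to compare with other promoters. The neighbours Odr4 of Tpr and Dnaaf6b of Nup62cl were not tested.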
